A study of Mus musculus with 7 samples.

Results

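The genes described here are 10 protein-coding neighbours of Pde4dip on mouse chromosome 3, namely Txnip, Pias3, Gpr89, Gja5, Acp6, Bcl9, Chd1l, Prkab2, Sec22b and Hsd3b2. They were chosen by name and position, with earlier results of these data known. Every probe that the platform annotation gives to one of them was taken, 21 probes of the 25697 on the array (10 of 16593 gene symbols). Brain RNA came from 3 male mice homozygous for the ko allele of Duf1220 and from 4 wild-type males, each mouse on 1 Illumina array. All 7 mice were labelled C57BL/6J and were 21 weeks old. In the mouse the DUF1220 domain is carried by the product of Pde4dip, myomegalin. The sources used here do not give the construction of the allele, the part of the gene it removes or the strain of the chromosome around it. The labels name the tissue only as brain. Fewer cells of a type and less RNA per cell cannot be told apart in such samples.

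A targeted allele can change genes beside it in cis. A selection cassette brings its own promoter, a deletion can remove a regulatory sequence that neighbours share, and sequence around the target stays linked to it through breeding. The neighbours of a knocked-out gene are therefore commonly read as a check on the allele, with the nearest genes of most interest. In the human genome, relatives of Prkab2, Chd1l, Bcl9, Acp6, Gja5 and Gpr89 lie together in a recurrently deleted and duplicated segment of chromosome 1.

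In the RefSeq gene order of chromosome 3, Prkab2 is the first protein-coding gene on one side of Pde4dip and Sec22b the first on the other. On the Prkab2 side Chd1l is at position 3 from Pde4dip, Bcl9 at 5, Acp6 at 6, Gja5 at 7, Gpr89 at 9, Pias3 at 15 and Txnip at 23. Hsd3b2 is at position 13 on the Sec22b side. RefSeq (GRCm38.p6) listed 11 transcription starts for the 10 genes and 2 for Pde4dip. The upstream start of Pde4dip and that of Sec22b point away from each other and lie 12520 bases apart. The start of Prkab2 is 230495 bases from that of Pde4dip, and that of Txnip, the farthest, 1330750 bases. The 250 bases before 6 of these starts follow, 5′ to 3′. Those of Prkab2, Pde4dip and Sec22b show the targeted gene with its nearest neighbours, that of Txnip carries a rare element, and those of Acp6 and Hsd3b2 belong to the members with the smallest p-values. Capitals mark matches on either strand to a searched motif. The motifs were the GC box, spelled GGGCGG, the CCAAT box, the TATA box in the form TATAAA, the E-box in the form CACGTG, the cAMP response element in its full palindrome, and the carbohydrate response element, a pair of CACGNG copies with 5 bases between them.
Prkab2, chr3:97657962-97658211, plus strand: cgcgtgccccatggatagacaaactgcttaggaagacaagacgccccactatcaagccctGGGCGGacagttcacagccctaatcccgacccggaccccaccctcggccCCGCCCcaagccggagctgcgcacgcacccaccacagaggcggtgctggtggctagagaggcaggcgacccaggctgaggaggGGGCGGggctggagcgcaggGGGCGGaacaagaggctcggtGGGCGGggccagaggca
Pde4dip, chr3:97888708-97888957, minus strand: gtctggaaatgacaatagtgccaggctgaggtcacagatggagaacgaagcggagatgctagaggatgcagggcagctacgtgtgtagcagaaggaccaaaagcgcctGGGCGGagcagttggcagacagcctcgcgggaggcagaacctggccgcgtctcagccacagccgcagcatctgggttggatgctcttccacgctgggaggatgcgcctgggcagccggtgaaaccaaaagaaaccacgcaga
Sec22b, chr3:97900977-97901226, plus strand: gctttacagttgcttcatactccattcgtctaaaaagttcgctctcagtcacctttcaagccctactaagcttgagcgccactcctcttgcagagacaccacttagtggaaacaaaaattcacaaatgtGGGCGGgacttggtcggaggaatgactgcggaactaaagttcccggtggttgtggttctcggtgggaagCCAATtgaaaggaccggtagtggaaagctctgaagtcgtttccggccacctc
Txnip, chr3:96557707-96557956, plus strand: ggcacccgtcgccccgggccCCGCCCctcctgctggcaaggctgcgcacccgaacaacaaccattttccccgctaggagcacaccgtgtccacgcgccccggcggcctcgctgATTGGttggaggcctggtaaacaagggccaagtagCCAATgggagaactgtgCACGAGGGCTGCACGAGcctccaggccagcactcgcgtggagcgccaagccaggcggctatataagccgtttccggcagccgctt
Acp6, chr3:97158527-97158776, plus strand: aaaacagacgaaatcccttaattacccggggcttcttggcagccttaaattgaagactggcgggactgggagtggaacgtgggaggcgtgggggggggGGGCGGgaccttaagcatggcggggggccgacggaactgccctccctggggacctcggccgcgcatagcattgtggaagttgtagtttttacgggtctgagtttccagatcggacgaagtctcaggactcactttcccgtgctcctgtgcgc
Hsd3b2, chr3:98724544-98724793, minus strand: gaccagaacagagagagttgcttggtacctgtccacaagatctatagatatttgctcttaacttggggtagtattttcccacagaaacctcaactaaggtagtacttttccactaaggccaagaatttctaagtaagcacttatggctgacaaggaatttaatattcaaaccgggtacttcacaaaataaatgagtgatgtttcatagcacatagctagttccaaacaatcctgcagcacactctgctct
The carbohydrate response element is the form through which glucose-sensing factors of the ChREBP and MondoA family act on Txnip. It was found 85 to 69 bases before the Txnip start, and 15 of 32851 listed windows of the same length held it, or 0.0457%. The GC box was found at 8 of the 11 neighbour starts, against 32.7% of all windows. CCAAT was found at 4 of the 11 starts, against 33.8% of all windows. TATAAA was found at 1 start, against 12.4% of all windows. The E-box (6.02% of all windows) and the cAMP response element (1.55%) were found at 0 of the 11 starts. The neighbour windows held 1 to 28 CpG sites, with a median of 17.0, against a median of 6.0 over all windows. Hsd3b2 had the lowest count, and Bcl9 the highest. An E-box, a CCAAT box or a GC box can lie inside a carbohydrate response element, and otherwise the motifs do not contain one another. A match describes letters only.

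The intensities were the values as normalized by the authors, on a linear scale, with values under a floor of 16 set to 16 before log2 was taken. A probe was tested with limma where it lay above the floor on at least 3 arrays, which held for 12833 probes. Differences are knockout minus wild type on the log2 scale, and adjusted p-values are Benjamini-Hochberg values over all tested probes. Array medians lay between 14.56 and 14.62. Of the brain markers, the neuronal gene Map2 read 3670 to 4757 and the myelin gene Mbp 11390 to 16610. Others were dim, with Gfap at 38.98 to 67.2, S100b at 32.16 to 67.86, P2ry12 at 15.86 to 47.57 and Tubb3 at 9.648 to 31.15, and the probes of Snap25 and Nefl stayed under the floor. Correlated with each of the other 6 arrays, wild-type array 2 averaged an r of 0.932 and wild-type array 3 averaged 0.970, while the 5 remaining arrays averaged 0.976 to 0.981. The summed intensity of 6 blood markers, with haemoglobin and erythroid genes among them, was 9336, 11258 and 13576 on the knockout arrays and 13786, 29518, 18458 and 10721 on wild-type arrays 1 to 4. The red-cell gene Hba-a1 made up 89.6% to 94.9% of that sum.

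Pde4dip itself was read first. Its brightest probe, ILMN_3064283, had intensities of 1233, 1442 and 1498 on the knockout arrays, against 2228, 2502, 2198 and 2157 on the wild-type arrays. The groups did not overlap, which held for 7.39% of all tested probes, 3.94% with knockout lower. The difference was -0.71 (SE 0.15, limma adjusted p = 0.754). An unadjusted limma p as small as that of this probe was found for 0.039% of all tested probes. The exact permutation p was 0.0286, two-sided and not adjusted, the smallest that 35 splits allow. With arrays weighted by their quality the difference was -0.68 with a limma adjusted p of 0.0437. Those weights were 6.71 for wild-type array 1 and 0.1045, 0.3354 and 0.8554 for wild-type arrays 2 to 4, so that this value rests mostly on 1 wild-type mouse. Probe ILMN_2751354 read 441, 528 and 500 in knockout against 475, 662, 381 and 460 in wild type, and the groups overlapped with a difference of 0.01 (SE 0.20). The remaining probe, ILMN_1215884, lay above the floor on 1 of 3 knockout and 2 of 4 wild-type arrays and differed by -0.35 (SE 0.30). The platform annotation assigns ILMN_3064283 to a different RefSeq transcript from that of ILMN_2751354 and ILMN_1215884. The position of these probes relative to the removed part is not known here, so none of them checks the genotype labels fully.

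None of the 10 neighbours passed the test. At none of their tested probes were the knockout arrays all above or all below the wild-type arrays. Of the 21 probes, 12 were tested, at least 1 for each gene, and 9 were too dim. By the brightest probe of each gene, 5 genes had a higher and 5 a lower mean in knockout, with a median difference of 0.03. Over all 9079 tested genes the median was also 0.03 and 55.0% had the higher mean in knockout (53.1% of all tested probes). No adjusted p was under 0.05 among the neighbour probes, where the share over all tested probes was 0.00%. An unadjusted p under 0.05 was found for 2 of the 12 probes, Acp6 and Hsd3b2, where 4.20% of all tested probes had one, 2.21% with knockout higher and 1.99% with knockout lower. Counted by gene this was 2 of 10, against 3.86% of all tested genes. The count of probes was 0 when knockout array 1 or 2 or wild-type array 1, 2 or 3 was left out, and 5 with array weights. Over all 12833 tested probes the counts with those arrays left out were 248, 163, 566, 679 and 289. Array weights gave 2649 over all tested probes, against 539 at the main setting. Complete separation of the groups was found for 0 of the 12 probes and for 7.39% of all tested probes, 3.44% with knockout higher and 3.94% with knockout lower. The members were chosen with earlier results of these data known, so their share is a description.

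**Figure D1:**
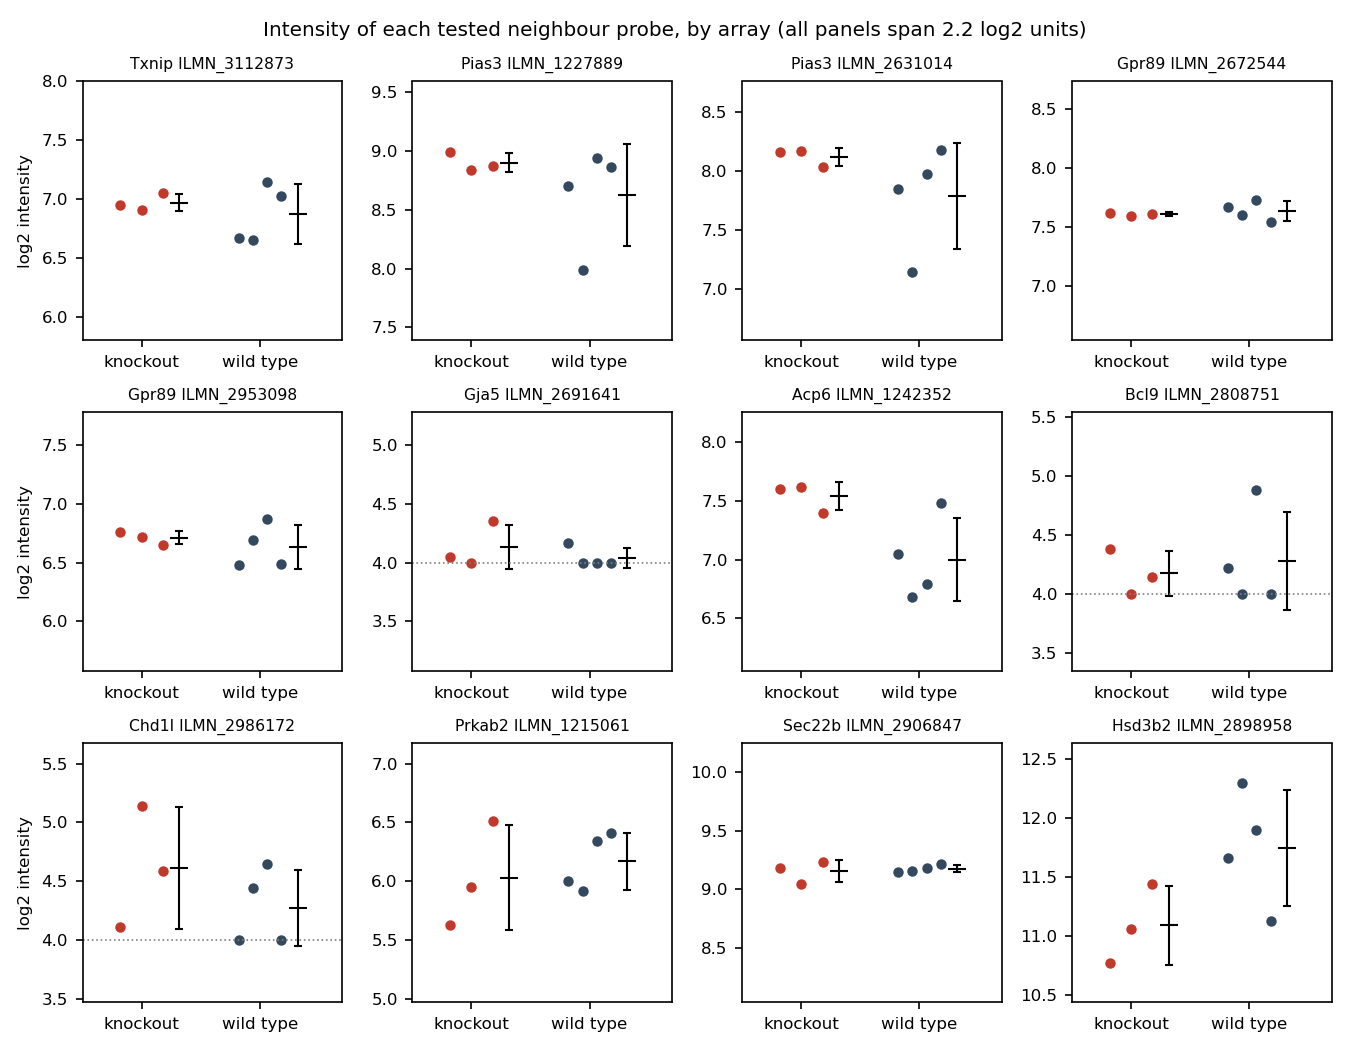
Log2 intensity of the 12 tested probes of the neighbours on each array, with knockout at the left and wild type at the right of each panel. Points are arrays, bars are the mean and SD (n = 3 knockout, n = 4 wild type), the dotted line is the floor at log2 4, and every panel spans the same range of log2 units. Points of the groups overlap in every panel, closely for Sec22b and Gpr89, and a single low wild-type point stands apart in both Pias3 panels.

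The genes nearest to the target had similar readings in both groups. Sec22b encodes a vesicle SNARE of transport between the endoplasmic reticulum and the Golgi apparatus, and is the neighbour at which the start faces away from that of Pde4dip. Its intensity was 580, 529 and 599 on the knockout arrays, against 570, 573, 581 and 596 on the wild-type arrays. The knockout values enclosed the wild-type values, and the difference was -0.03 (SE 0.13, adjusted p = 0.951). The 95% interval ran from a level 1.26-fold lower in knockout to one 1.21-fold higher. Prkab2 encodes a regulatory beta subunit of the AMP-activated protein kinase, the energy sensor of the cell. It read 49.4, 61.9 and 90.9 in knockout, against 64.1, 60.4, 81.2 and 85.2 in wild type. The knockout arrays held both the lowest and the highest reading, and the difference was -0.14 (SE 0.24, adjusted p = 0.846), with an interval from 1.60-fold lower to 1.32-fold higher. Without knockout array 1 the sign turned, to 0.06, and without knockout array 3 the difference was -0.38.

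Gpr89, which encodes an anion channel of the Golgi membrane that regulates its pH, had knockout readings inside the wild-type range at both of its probes. Probe ILMN_2672544 read 197, 193 and 195 in knockout against 204, 193, 212 and 186 in wild type, a difference of -0.03 (SE 0.13, adjusted p = 0.957). At probe ILMN_2953098 the readings were 108, 105 and 100 in knockout and 89.0, 104, 117 and 90.1 in wild type. The difference there was 0.07 (SE 0.15, adjusted p = 0.881), and 0.021 to 0.15 with one array left out. For Gpr89 the interval at the first probe ran from 1.26-fold lower to 1.21-fold higher in knockout.

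Txnip encodes an arrestin-like protein that binds thioredoxin and restrains glucose uptake, and its transcript follows glucose through the element shown above. Its intensity was 124, 120 and 133 in knockout, against 102, 100, 142 and 131 in wild type. The wild-type arrays fell into a lower and a higher pair with the knockout arrays in between or beside the higher pair, and the difference was 0.10 (SE 0.17, adjusted p = 0.857). Leaving out wild-type array 1 gave 0.029, array 2 of that group 0.022 and array 3 of that group 0.19, and array weights gave 0.23. Of 7 tested relatives and partners of Txnip (thioredoxins, reductases, arrestin-domain proteins, its glucose-responsive regulators and a glucose transporter), 3 had a higher and 4 a lower mean in knockout and 0 passed. The glucose transporter gene Slc2a1 differed by -0.38 (SE 0.23) and Arrdc4, an arrestin-domain relative, by -0.26 (SE 0.15). On the other side were Arrdc2 at 0.40 (SE 0.38) and Mlxipl, which encodes ChREBP, at 0.22 (SE 0.21).

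The neighbours that act in the nucleus were split between bright and dim probes. Pias3, a SUMO ligase that inhibits STAT3, read 509, 457 and 467 at probe ILMN_1227889 in knockout, against 415, 253, 490 and 464 in wild type. Probe ILMN_2631014 read 285, 287 and 262 in knockout and 230, 141, 251 and 289 in wild type. On both probes wild-type array 2 was lowest and the other wild-type arrays lay near the knockout arrays. The differences were 0.28 (SE 0.24) and 0.33 (SE 0.24), both at an adjusted p of 0.754, and without wild-type array 2, the array with the highest blood sum, they were 0.07 and 0.12. With the blood sum as a covariate they were -0.021 and -0.018, so the direction turned, and with the equal-weight blood score described below they were 0.22 and 0.26. The remaining Pias3 probe lay under the floor on every array. Chd1l, a chromatin remodeller recruited by poly(ADP-ribose) at DNA breaks, read 17.2, 35.2 and 24.1 in knockout and 11.4, 21.7, 25.1 and 11.4 in wild type. It lay above the floor on 3 of 3 knockout and 2 of 4 wild-type arrays, with a difference of 0.34 (SE 0.27, adjusted p = 0.754), which was 0.08 without knockout array 2. It was 0.59 without knockout array 1, 0.61 without wild-type arrays 2 and 3, 0.58 at a floor of 8 and 0.68 with array weights. Its other probe stayed under the floor. Bcl9, a co-activator of beta-catenin in Wnt signalling, read 20.8, 10.4 and 17.6 in knockout and 18.7, 12.9, 29.4 and 14.8 in wild type. It lay above the floor on 2 arrays of each group and differed by -0.10 (SE 0.24, adjusted p = 0.895), with the sign turned to 0.10 without wild-type array 3 and a value of -0.21 without knockout array 1.

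Gja5 encodes connexin 40, a gap junction protein of arterial endothelium and the cardiac atria, and was at the limit of detection. Probe ILMN_2691641 read 16.6, 9.33 and 20.4 in knockout and 18, 16, 14.5 and 15 in wild type, around the floor of 16. The difference of 0.09 (SE 0.15, adjusted p = 0.846) turned to -0.11 at a floor of 8, so no direction can be given. The 2 other Gja5 probes stayed under the floor on all 7 arrays. Among 6 tested relatives, 1 connexin gene had a higher and 5 a lower mean in knockout, 0 passed, and the astrocyte connexin Gja1 differed by 0.05 (SE 0.21). Gjc1 differed by -0.22 (SE 0.19) and Gjb2 by -0.27 (SE 0.27).

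Acp6 and Hsd3b2 had the smallest p-values of the 10 genes, in opposite directions. Acp6 encodes a mitochondrial phosphatase of lysophosphatidic acid. It read 193, 197 and 169 in knockout, against 133, 102, 110 and 178 in wild type. Wild-type array 4 lay among the knockout arrays, and the other 3 wild-type arrays lay below them. The mean was 186.5 ± 15.5 (SD, n = 3) in knockout and 131.0 ± 34.1 (SD, n = 4) in wild type. The means of the log2 values differed by 0.54 (SE 0.21, 95% interval 0.06 to 1.02), which is 1.45-fold. The limma adjusted p was 0.754 and the exact permutation p 0.0857. An unadjusted p as small as that of Acp6 was found for 2.13% of all tested probes.

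Hsd3b2 encodes a 3-beta-hydroxysteroid dehydrogenase, one of a cluster of similar genes that convert steroid precursors. Probe ILMN_2898958 read 1750, 2139 and 2779 in knockout, against 3236, 5028, 3811 and 2245 in wild type. Again wild-type array 4 lay among the knockout arrays and the other wild-type arrays lay beyond them. The means of the log2 values differed by -0.65, or 1.57-fold lower in knockout (SE 0.28, 95% interval -1.30 to -0.01, adjusted p = 0.754, exact permutation p = 0.114). As small an unadjusted p was found for 3.98% of all tested probes. The probes of this gene disagreed on whether it was detected at all. The 5 other Hsd3b2 probes read at most 19.7, on wild-type array 2, and lay under the floor on every other array, and 4 of them never reached the floor. The probes of Hsd3b1, Hsd3b4, Hsd3b5 and Hsd3b6 in the same cluster were also under the floor on all arrays, as were the probes of Star and Cyp17a1, which mark steroid-making cells. Cyp11a1, the other listed marker of these cells, read 4.367 to 17.18. The signal given to Hsd3b2 thus rests on 1 of 6 probes, and which transcript that probe measured was not tested.

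Acp6 and Hsd3b2 ran opposite to each other over the arrays. Their log2 intensities had a Pearson r of -0.96 (exact permutation p = 0.000397, Benjamini-Hochberg 0.0179 over 45 pairs of neighbours) and a Spearman rho of -0.96 (exact permutation p = 0.00278). Without the 2 arrays farthest from the Acp6 median r was -0.89. Knockout and wild-type arrays were pooled in these values, so the opposite group differences of Acp6 and Hsd3b2 enter them. A relation within the groups was not tested.

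Against the log2 sum of the 6 blood markers, which is mostly Hba-a1, Hsd3b2 had r = 0.97 and Acp6 r = -0.92, and the result depended on how the markers were weighted. The exact permutation p was 0.000595 for Hsd3b2 (rho 0.96, p = 0.00278) and 0.00119 for Acp6 (rho -0.89, p = 0.0123), each with a Benjamini-Hochberg value of 0.0667 over 240 relations of 10 genes with 12 marker lists in 2 measures. Neither relation passed that adjustment. Knockout and wild-type arrays were pooled in all of these relations, so differences between the groups enter them. Without the 2 arrays farthest from the median sum r was 0.95 for Hsd3b2 and -0.91 for Acp6. With each marker given equal weight, as the mean of log2 values centred per gene, r was 0.69 for Hsd3b2 (exact permutation p = 0.0742, rho 0.61) and -0.62 for Acp6 (exact permutation p = 0.116, rho -0.68). Without the 2 arrays farthest from the median score these were 0.14 and -0.08, so that they rest on those arrays. By that score wild-type arrays 1 and 3, at -0.30 and -0.04, lay inside the knockout range of -0.39 to 0.25. Another list was related as closely, by the equal-weight score of 6 meningeal and fibroblast markers. Hsd3b2 had r = -0.94 with it and Acp6 r = 0.96 (exact permutation p = 0.00119 and 0.00139, Benjamini-Hochberg 0.0667 each). With the log2 sum of that list r was -0.46 and 0.55. Most markers of that list were dim. Col3a1 was under the floor on all arrays. Col1a2 read 6.931 to 25.75, Lum 6.655 to 42.9 and Col1a1 9.963 to 50.27, so their lowest readings were under the floor. Dcn, at 393.1 to 669.4, and Igf2, at 2180 to 3263, were brighter. The equal-weight score gives the dim markers the same weight as these, so it cannot decide whether meningeal cells differed. With the equal-weight astrocyte score r was 0.90 for Hsd3b2 and -0.80 for Acp6 (Benjamini-Hochberg 0.272 and 0.587).

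The blood markers did not move together. Hba-a1, a haemoglobin gene of red cells, read 8622, 10662 and 12681 in knockout, against 13081, 26435, 17439 and 10062 in wild type. Alas2, the erythroid enzyme of haem synthesis, read 149, 184 and 248 in knockout, against 252, 1045, 437 and 215 in wild type. In both genes wild-type array 4 lay among the knockout arrays and the other wild-type arrays lay above them. The 2 other red-cell genes of the list differed from this order. Hbb-bt read 172, 247 and 330 in knockout, against 295, 1766, 430 and 293 in wild type, with wild-type arrays 1 and 4 inside the knockout range. Slc4a1 read 44.3, 29.3 and 61.8 in knockout, against 36.7, 161, 37.2 and 24.3 in wild type. Only wild-type array 2 lay above the knockout arrays there. S100a9, a marker of neutrophils, read 72.8, 34.6 and 55.4 in knockout, against 19.9, 23.3, 18.2 and 24.2 in wild type, higher on all knockout arrays. Its partner S100a8 was at 275, 101 and 199 in knockout and at 101, 87.6, 96.6 and 101 in wild type. Its groups did not overlap either, by less than the rounding shown. Groups without overlap were found for 7.39% of all tested probes, 3.44% with knockout higher.

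With the blood sum as a covariate the difference was 0.25 for Acp6 and -0.19 for Hsd3b2, and with the equal-weight score it was 0.49 for Acp6 and -0.58 for Hsd3b2. Both covariates were chosen after seeing the data. Without wild-type arrays 2 and 3 the difference was 0.27 for Acp6 and -0.30 for Hsd3b2. The sum of 6 arterial and smooth muscle markers was 815 to 886 in knockout and 875 to 1492 in wild type, and the smooth muscle gene Acta2 made up 81.2% to 92.7% of it. Hsd3b2 had r = 0.92 with that sum and -0.36 with the equal-weight score of the same list (exact permutation p = 0.000595 and 0.424). Acp6 had r = -0.88 with the sum and 0.34 with the score (exact permutation p = 0.00179 and 0.483). Tagln of this list was under the floor on all arrays. The part of blood, vessel, meningeal or astrocyte cells in these differences was not tested beyond these values.

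**Figure D2:**
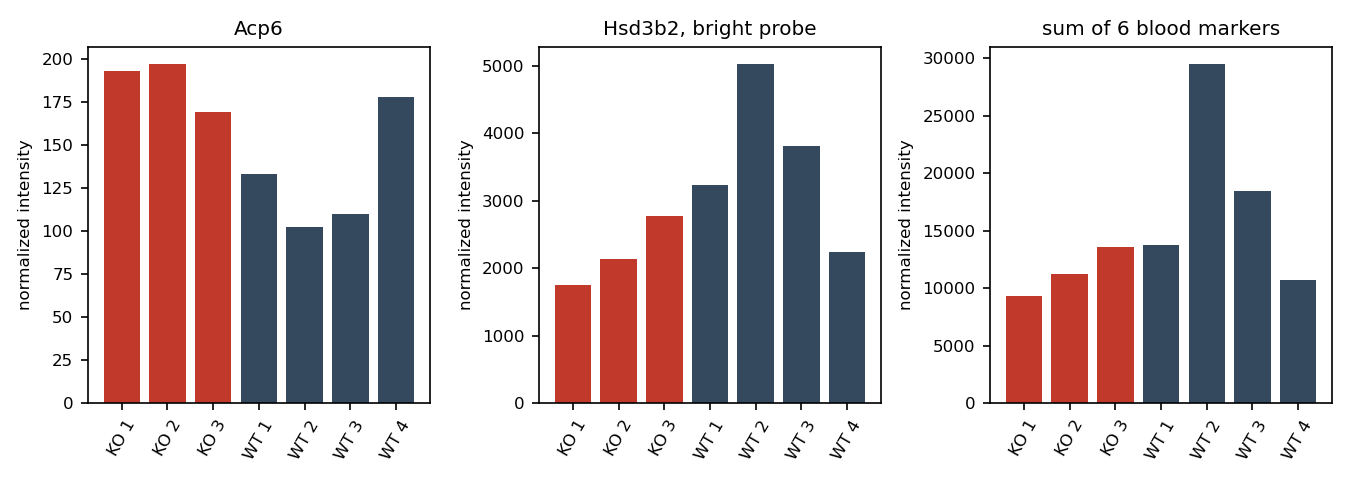
Normalized intensity on each array (KO, knockout; WT, wild type) of Acp6, of the bright Hsd3b2 probe and of the sum of 6 blood markers (mostly Hba-a1), each bar 1 mouse. Wild-type array 2 had the highest Hsd3b2 reading and blood sum and the lowest Acp6 reading, and wild-type array 4 stood with the knockout arrays in all panels.

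By likeness over the 7 arrays, the genes nearest to Acp6 among all tested probes were Zfc3h1 on chromosome 10 (r = 0.998), Jdp2 on chromosome 12 (r = 0.994) and Eif4h on chromosome 5 (r = 0.992), each with a rho of 1.0. These were picked as the highest of 12833 probes, over the same 7 arrays as above. None of the 3 lies on chromosome 3. Between the neighbours the 45 pairwise r values ran from -0.96 to 0.87 with a median of 0.11, and the highest, of Gpr89 with Bcl9, had a Benjamini-Hochberg value of 0.232 (exact permutation p = 0.0155; rho 0.93; r without the 2 farthest arrays 0.56).

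The same picture held for the other genes around the target. Of the 50 other protein-coding genes among the 30 on each side of Pde4dip, 35 were on the array and 13 were tested. Of these, 6 had a higher and 7 a lower mean in knockout, with a median of -0.01, and 0 passed or had groups that did not overlap, where 7.17% of all tested genes did by their brightest probe. On the Prkab2 side 7 were tested with a range of -0.17 to 0.07, and on the Sec22b side 6 with a range of -0.59 to 0.38. Phgdh, the first enzyme of serine synthesis, at position 7 on the Sec22b side, had the smallest p of these genes. It read 62.3, 63.4 and 61.4 in knockout, against 83.8, 127, 117 and 62.2 in wild type, so that wild-type array 4 again lay with the knockout arrays. The difference was -0.59 (SE 0.25, adjusted p = 0.754). Rbm8a, which encodes a subunit of the exon junction complex, differed by -0.17 (SE 0.16). Wdr3, a ribosome assembly gene, differed by 0.38 (SE 0.25), and the mannosidase gene Man1a2 by 0.16 (SE 0.15). On wild-type arrays 2 and 3 Wdr3 read 20.1 and 17.0, against 31.1 to 33.6 on the knockout arrays and 32.1 and 33.0 on wild-type arrays 1 and 4.

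**Figure D3:**
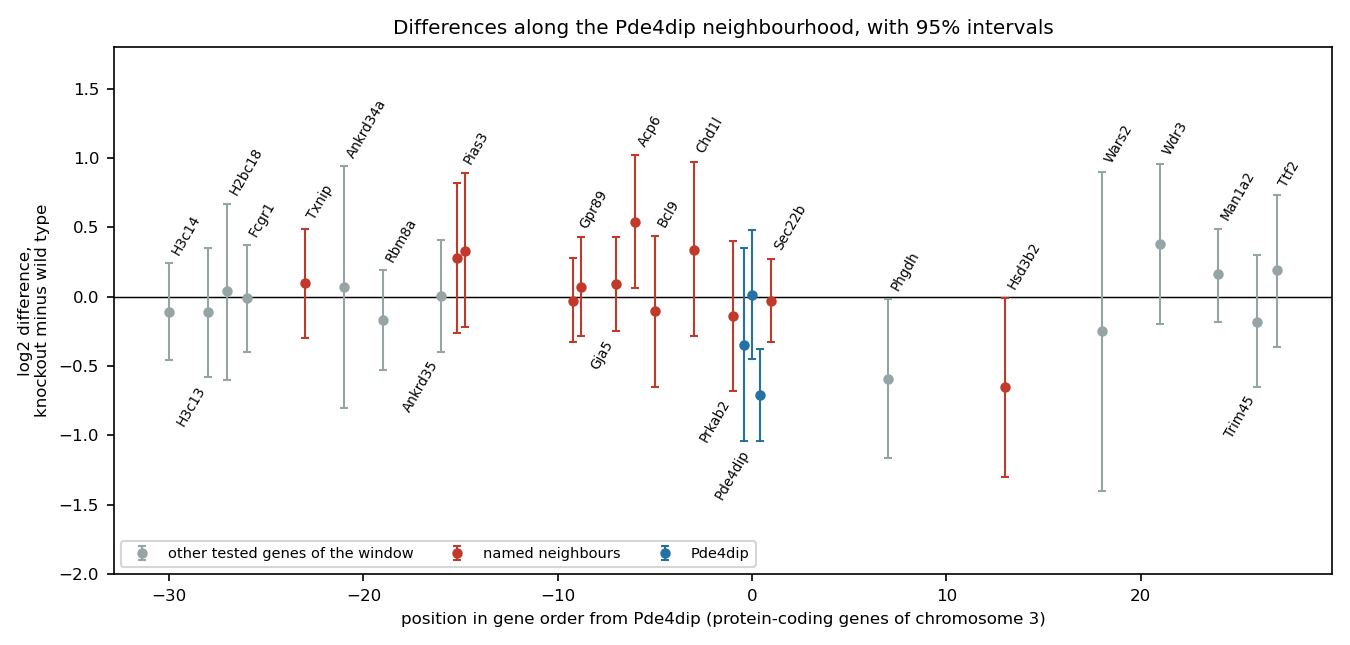
Log2 difference, knockout minus wild type, of each tested gene of the window against its position in gene order from Pde4dip, which is at 0. Points are probes (all tested probes for the neighbours and Pde4dip, the brightest for other genes), bars are 95% intervals, and the Prkab2 side has negative positions. The lowest point is the brightest Pde4dip probe at -0.71, and the intervals of Acp6, Phgdh and Hsd3b2 are the ones away from Pde4dip that exclude 0.

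**Figure D4:**
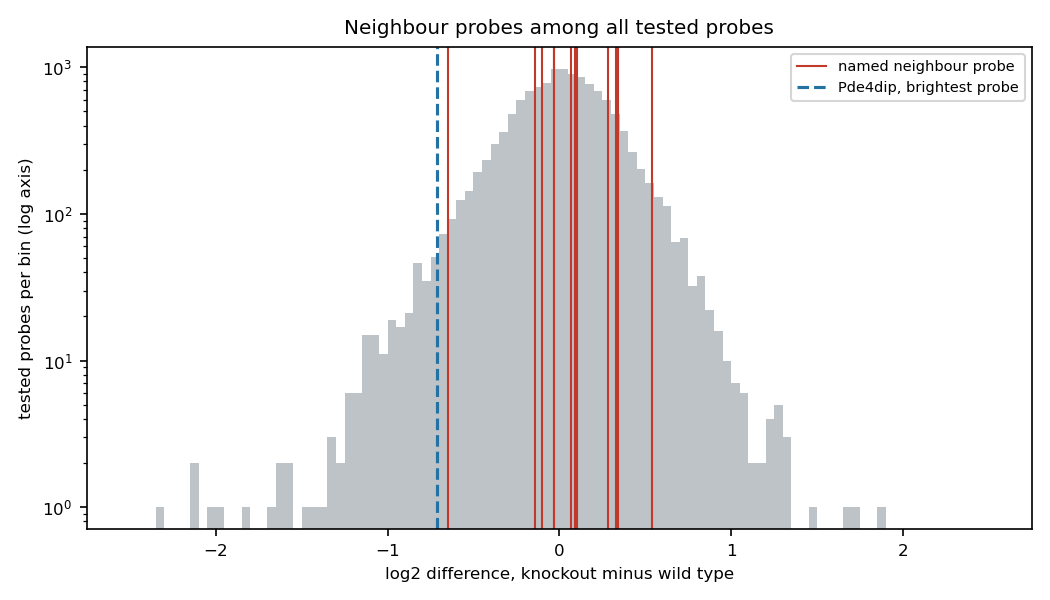
Number of tested probes (log axis) by log2 difference, knockout minus wild type, in grey, with red lines at the 12 neighbour probes and a dashed line at the brightest Pde4dip probe. The neighbour lines run from -0.65 to 0.54, among 12833 tested probes. By the brightest probe of each gene, all tested genes ran from -2.14 to 1.86.

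Relatives and partners of the other neighbours gave no passes either, over all tested probes. For Pias3 (other PIAS ligases, SUMO genes and STAT3), 3 of 9 tested members had the higher mean in knockout and 6 the lower. Sumo3 differed by -0.25 (SE 0.16), Sae1, a subunit of the SUMO-activating enzyme, by -0.21 (SE 0.17), Pias4 by 0.08 (SE 0.25) and Pias1 by 0.01 (SE 0.18). Around Bcl9, 1 member was higher and 7 were lower of 8 tested genes of Wnt signalling, with the transcription factor gene Tcf7l2 at -0.41 (SE 0.21), the co-activator gene Pygo2 at -0.33 (SE 0.22) and Axin2, a Wnt target, at 0.29 (SE 0.19). Tcf7l2 read 445, 425 and 445 in knockout and 510, 796, 649 and 442 in wild type, with the highest readings on wild-type arrays 2 and 3. Among the partners of Chd1l, 5 of 6 tested chromatin remodellers and PARP genes were higher, at a median of 0.16, with Parp1 at 0.18 (SE 0.15), Parp2 at 0.24 (SE 0.20) and Chd8 at -0.06 (SE 0.14). For the AMPK subunits, their kinases and their substrate acetyl-CoA carboxylase 4 of 7 were higher at a median of 0.01, with the other beta subunit gene Prkab1 at 0.19 (SE 0.17), Prkag2 at 0.20 (SE 0.15) and Acaca at -0.04 (SE 0.14). The catalytic subunit gene Prkaa2 differed by -0.69 (SE 0.60), with 230 on wild-type array 2 and 32.6 to 83.3 on all other arrays. For the SNARE and coat genes that act with Sec22b, 10 of 14 were higher at a median of 0.11. Sec13 differed by 0.24 (SE 0.15), Bet1l by 0.28 (SE 0.20), Sec22a by -0.45 (SE 0.29) and Use1 by -0.36 (SE 0.25). Among these, Stx5a, the Golgi partner SNARE, was the 1 of 14 whose groups did not overlap, where 7.17% of all tested genes have such groups. It read 2225, 2268 and 2203 in knockout against 2129, 1812, 1769 and 2155 in wild type, a difference of 0.19 (SE 0.14, adjusted p = 0.754). Of the Acp6 relatives 2 were tested, Acp2 at -0.11 (SE 0.21) and Pxylp1 at -0.02 (SE 0.16). Of the Hsd3b2 relatives 2 were tested, Hsd3b7 at -0.04 (SE 0.16) and Tspo at 0.03 (SE 0.21). A dimmer Hsd3b7 probe disagreed, at 203, 209 and 204 in knockout against 187, 140, 181 and 202 in wild type, a difference of 0.23 (SE 0.16).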

How the data were processed

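The deposited values are intensities on a linear scale, 1 array per mouse. The authors used GenomeStudio 2011.1, per the submitters' processing notes. The deposited intensities include negative values and have nearly equal array quartiles. The background and normalization methods are not given in the sources used here. A second table with 7 signal columns was not used, because its column names match no sample label.

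Intensities under 16 were set to 16 and log2 was taken. Probes above 16 on at least 3 arrays entered a limma fit (version 3.58.1 under R 4.3.3, lmFit then eBayes, group as the only term), with Benjamini-Hochberg adjustment over 12833 probes at a threshold of 0.05. The brightest probe stands for a gene. For single probes an exact permutation test, two-sided, used the size of the mean difference in 35 splits. Gene symbols are from the platform annotation, gene order and promoters from RefSeq GRCm38.p6. The named genes are all probes of the 10 neighbours and of Pde4dip, and, for the window of 30 genes on each side and for each list of relatives, up to 2 genes per direction by unadjusted p. Stx5a falls outside that rule and was named after its values were seen. The members and lists were chosen with earlier results of these data known. Data were simulated for this comparison (12833 probes, 200 of them changed, 10 runs), with noise drawn independently for each probe. The fit recovered 41.9% of probes changed by 1 on the log2 scale and 86.5% of those changed by 2. Each run held on average 6.5 false calls. These shares depend on those settings and do not give the rate for a single neighbour in the real data. No pair of arrays shared more than 0.00389% of values. The number of arrays limits the precision. The median standard error over all tested probes was 0.21. The labels give each array its own mouse. Alternatives covered the floor, filter, normalization, variance model, array weights, replicate block, left-out arrays and blood. Figures were drawn with matplotlib 3.10.9.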

Additional observations from a re-analysis of the deposited data

Results flagged for a closer look

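At the Gja5 probe ILMN_2691641, the highest wild-type array, array 1, stood far from the other 3 wild-type arrays, with a gap of 0.979 of the range of that group on the floored log2 scale, past the critical value of 0.829. The other 3 arrays lay at or next to the floor of 16. On the intensities before the floor the gap was 0.56 of the range, under the critical value. The floor draws the other arrays together, so the rate at which chance gives such a gap is not known for these values.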

How the results depend on the processing

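No neighbour probe was called under any of the 20 alternatives run, 2 of which (the blood sum and the blood score as covariates) were chosen after seeing the data. Array weights gave 28 called probes over the array, 11 higher and 17 lower, against 0 with limma at the main setting, where 539 had an unadjusted p under 0.05. The brightest Pde4dip probe was called with array weights (-0.68, adjusted p = 0.0437), and its adjusted p ran from 0.0437 to 1.00. In the exact permutation test (-0.71, p = 0.0286) it had the smallest p possible, which was not adjusted. With one array left out its difference ran from -0.77 to -0.63, and the median of the neighbour probes from 0.02 to 0.13. The sign of the following probes turned. Bcl9 (range -0.21 to 0.10 with one array left out) gave 0.10 without wild-type array 3 and 0.06 without wild-type arrays 2 and 3. Gja5 (range -0.017 to 0.16) gave -0.11 at a floor of 8, -0.035 with log2(intensity + 16), -0.0061 with quantile normalization, -0.047 with array weights and -0.017 without knockout array 3. Gpr89 at ILMN_2672544 (range -0.06 to 0.0059) gave 0.0059 without wild-type array 3 and 0.0035 without wild-type arrays 2 and 3. Prkab2 (range -0.38 to 0.06) gave 0.06 without knockout array 1, and Sec22b (range -0.07 to 0.023) gave 0.023 without knockout array 2. Pde4dip at ILMN_2751354 (range -0.10 to 0.16) gave -0.045 and -0.0053 without knockout arrays 2 and 3, -0.10 and -0.013 without wild-type arrays 3 and 4, and -0.013 with the replicate block, and ILMN_1215884 gave 0.05 with the blood sum as a covariate. With that covariate both Pias3 probes turned, to -0.021 and -0.018. The cause was not tested. A floor of 32 and a filter over all arrays left no value for Gja5, Bcl9, Chd1l and Pde4dip at ILMN_1215884. The replicate block leaves out wild-type array 4, which has no partner. With it 0 probes were called (1535 at an unadjusted p under 0.05 in limma) and Acp6 differed by 0.70, as it did with that array left out and no block. Same-numbered arrays had correlations of deviations of 0.080, -0.132 and -0.037, and unlike-numbered arrays had values from -0.474 to 0.385. Each deviation was taken from the mean of its own group, which ties these values together. They therefore cannot decide whether the numbers pair the arrays.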
